A study of Mus musculus with 18 samples.

Results

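The size of the effect of all-trans retinoic acid (tRA) when it was added over each of 2 inhibitors of retinoid signalling was compared in mIMCD-3 cells, a cell line from the inner medullary collecting duct of the mouse kidney. The comparison used the 12 arrays of 18 in all that carried an inhibitor, with or without tRA. In one experiment, cells received 1 µM AGN193109, a pan-antagonist of the retinoic acid receptors (RARs), or 1 µM AGN193109 with 0.2 µM tRA. In the other experiment, cells received 25 µM DEAB, an inhibitor of the retinaldehyde dehydrogenases that make tRA, or 25 µM DEAB with 0.01 µM tRA. Each group had 3 arrays from separate experiments, and treatment lasted 24 h in medium with 1% serum. The remaining 6 arrays were the vehicle controls (0.1% ethanol plus 0.1% DMSO), 3 for each inhibitor. The inhibitor, the tRA dose and the array set changed together, so that their parts in any difference below cannot be told apart. All replicates are of 1 cell line.

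tRA is made from retinol by way of retinaldehyde, and it acts by binding RARs that sit with retinoid X receptors on response elements in DNA. An antagonist such as AGN193109 occupies the receptor and competes with added tRA, whereas DEAB lowers the supply of tRA made by the cell and leaves the receptor free. Retinoid signalling tunes its own supply: STRA6 carries retinol into the cell, DHRS3 reduces retinaldehyde back to retinol, and CYP26 enzymes break tRA down. In the collecting duct, this signalling is known to be active in the epithelium.

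Each array (Affymetrix Mouse Gene 1.0 ST) gave log2 levels of transcript clusters from the Robust Multichip Average (RMA). The AGN193109 arrays had medians of 7.23 to 7.33, and those of the DEAB set had medians of 7.48 to 7.51. Absolute levels were therefore not tested across experiments. Within each set, arrays correlated with Pearson's r of 0.985 or more and 0.993 or more. Of the markers of the labelled cell type, Cdh1, the epithelial cadherin, read 12.18 to 12.97 over the 18 arrays and Aqp2, the water channel of principal cells, read 7.56 to 8.31. No detection call was made, so that these readings do not decide whether a marker was present.

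Dhrs3 and Sprr1a were set out as markers of the comparison, and Sprr1a encodes a precursor of the cornified envelope of stratified epithelia. Of 87 genes named here or examined beside them, 64 had a RefSeq promoter window, 87 windows in all. The 250 bases before each start were searched on both strands for a direct repeat of retinoic acid response element half-sites with a spacer of 5 bases, known as DR5. The half-site was AGGTCA, for which AGTTCA was also accepted. The spellings that begin with G, that is GGGTCA as well as GGTTCA, were accepted too. The repeat was found in 0.0883% of 32851 windows, and among the 64 genes in those of 3, Ppbp, Rarb and Cyp26a1. None of the 64 had the repeat with a spacer of 1 or 2 bases, which 0.164% and 0.174% of all windows held. The window of Ppbp is shown because it held the repeat and because Ppbp and Sprr1a had the largest tRA effects with both inhibitors among the named genes, and the window of Sprr1a is shown beside it. They are chr5:90768268-90768517 on the plus strand and chr3:92485882-92486131 on the minus strand of GRCm38.p6, each written 5′ to 3′ up to the base before the start. Capitals mark the DR5, which read on the opposite strand from 230 to 246 bases before the start.
Ppbp: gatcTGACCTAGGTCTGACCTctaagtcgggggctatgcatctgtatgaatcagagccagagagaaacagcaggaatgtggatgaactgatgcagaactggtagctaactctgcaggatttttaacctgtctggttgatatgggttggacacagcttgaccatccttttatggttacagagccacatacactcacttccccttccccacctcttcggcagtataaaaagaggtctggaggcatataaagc
Sprr1a: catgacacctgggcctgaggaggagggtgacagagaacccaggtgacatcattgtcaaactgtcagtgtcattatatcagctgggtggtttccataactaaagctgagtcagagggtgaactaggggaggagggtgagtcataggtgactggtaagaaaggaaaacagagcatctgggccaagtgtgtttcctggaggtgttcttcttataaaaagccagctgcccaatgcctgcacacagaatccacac
The windows describe letters only, and binding was not measured here.

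tRA raised and lowered transcripts over both inhibitors, and more of them passed the test over DEAB, at the lower tRA dose. Over DEAB, 160 clusters rose (0.683% of 23410 with a gene symbol) and 133 fell (0.568%). Over AGN193109, 80 rose (0.342%) and 60 fell (0.256%). These are calls of limma at an adjusted p under 0.05 in a fit of the 18 arrays with replicate number as a block. In these bulk samples, less RNA per cell and fewer expressing cells cannot be told apart. Without the block the calls numbered 44 and 16 over DEAB, and 7 and 2 over AGN193109. The residual SD between replicates had a median of 0.106 with AGN193109 and 0.0696 with DEAB, and the fit gave both one spread. Leaving out any 1 array of DEAB or of DEAB with tRA gave 85 to 102 and 30 to 54 over DEAB, and leaving out the first AGN193109 array gave 46 and 11 over AGN193109. With array weights estimated per experiment, 287 rose and 315 fell over DEAB, and 46 rose and 14 fell over AGN193109. The counts alone therefore do not compare the sizes of the effects, which the contrast of the 2 effects does.

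In that contrast, the DEAB effect minus the AGN193109 effect, limma called 0 clusters (0% of 23410), and the smallest adjusted p was 0.10. At an unadjusted p under 0.05 it gave 807 clusters, 3.45%, of which 588 were higher with DEAB (2.51%) and 219 were lower (0.935%). With no difference in any cluster, a share of 0.05 would be expected at that threshold, so that 3.45% is no excess. The 3 replicate differences over DEAB lay above all 3 over AGN193109 for 1353 clusters (5.78%), and below them for 633 (2.7%). Of 20 equally likely arrangements with no difference, 1 gives each of these patterns. Neither count therefore shows a difference by itself. The median SE of the contrast was 0.11 on the log2 scale. The 95% interval lay within 0.5 of 0 on the log2 scale for 88.3% of the clusters and within 1 for 99.5%. For the remaining clusters, a difference of that size was not excluded by these arrays. For the markers, an exact two-sided permutation test of 3 against 3 replicate differences gave 0.1 for each, the smallest p that this design allows.

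**Figure D1:**
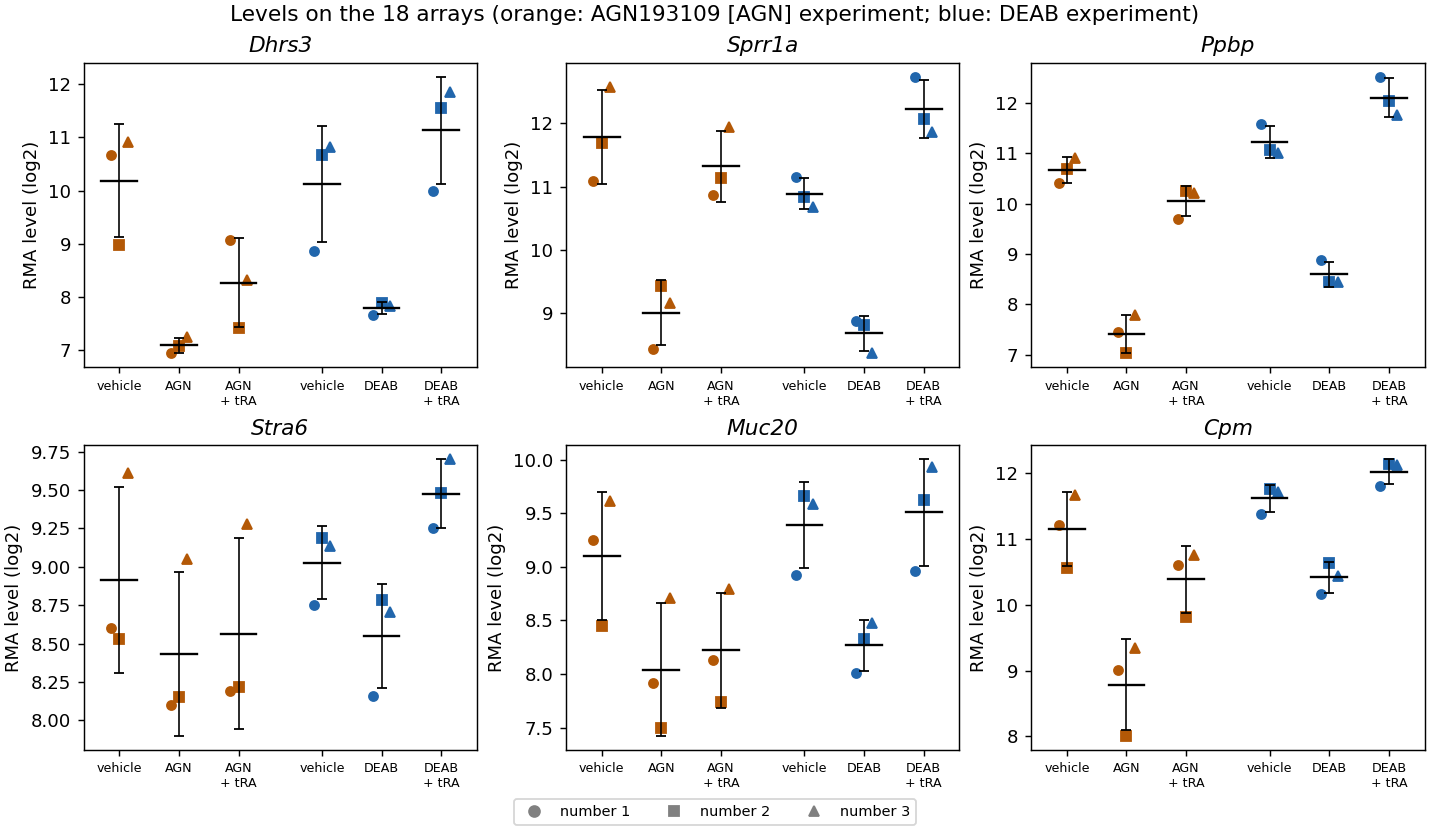
RMA levels (log2) of 6 genes on all 18 arrays, by group; points are arrays with their replicate number, black lines are group means and bars are SD (n = 3). For Dhrs3 every array with tRA lies above every array with the inhibitor alone, in each experiment, and its group means differ by 3.35 over DEAB and 1.19 over AGN193109.

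Among the genes that handle retinoids, Dhrs3 had the largest difference between the 2 tRA effects. With DEAB its 3 arrays read 7.66, 7.89 and 7.83, and with DEAB and tRA they read 9.99, 11.56 and 11.86. With AGN193109 they read 6.94, 7.07 and 7.24, and with AGN193109 and tRA they read 9.07, 7.41 and 8.33. Every array with tRA was above every array without it in both experiments, and the arrays with tRA were farther apart than those with the inhibitor alone. The tRA effect was 3.35 over DEAB, 10.2-fold (SE 0.39, adjusted p = 0.000611, limma), and 1.19 over AGN193109, 2.27-fold (adjusted p = 0.295). Their difference was 2.16 (95% interval 0.97 to 3.35, adjusted p = 0.994). The replicate differences were 2.33, 3.67 and 4.03 over DEAB and 2.13, 0.34 and 1.09 over AGN193109, and the lowest of the former was just above the highest of the latter. Leaving out replicate 2 of the AGN193109 group moved the difference to 1.65, and leaving out replicate 1 of the DEAB group moved it to 2.70.

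Stra6, the membrane receptor for retinol uptake, had the smallest p of all clusters in the contrast, and was chosen after its values were seen. It read 8.16, 8.79 and 8.70 with DEAB and 9.25, 9.48 and 9.70 with DEAB and tRA. With AGN193109 it read 8.10, 8.15 and 9.05, and with AGN193109 and tRA 8.19, 8.22 and 9.28. Each DEAB replicate gained more than any AGN193109 replicate. The tRA effect was 0.93 over DEAB (adjusted p = 3.05e-05) and 0.13 over AGN193109 (95% interval -0.03 to 0.29, adjusted p = 0.642). The difference was 0.80 (SE 0.10, 95% interval 0.58 to 1.02, adjusted p = 0.10). It passed in 1 of 28 alternatives, without the second DEAB with tRA array, where it was 0.90 (adjusted p = 0.016). In the other 27 it did not pass.

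Of 37 measured members of 38 in the retinoid list, 2 (Dhrs3 and Stra6) rose and 1 (Cyp2s1) fell with tRA over DEAB. Over AGN193109, 0 rose and 2 (Cyp2s1 and Dhrs9) fell. Of all clusters, 0.683% rose and 0.568% fell over DEAB, and 0.342% rose and 0.256% fell over AGN193109. In the contrast, 5 of the 37 were higher with DEAB and 1 lower at an unadjusted p under 0.05. The shares of all clusters were 2.51% and 0.935%. The list had a median contrast of 0.09 against 0.02 over all clusters. Rarb, a receptor gene that tRA is known to induce, had tRA effects of 0.29 over DEAB (adjusted p = 0.172) and 0.02 over AGN193109 (adjusted p = 0.971). For Cyp26a1, of tRA breakdown, the effects were 0.19 and 0.06. Over the 18 arrays Rarb read 6.00 to 6.71 and Cyp26a1 read 5.90 to 6.46, below every array median. At such low readings, their small effects do not show that these genes failed to respond. Rdh10, which oxidizes retinol to retinaldehyde, had -0.23 and -0.01. Aldh1a2, which makes tRA from retinaldehyde, had 0.01 and 0.19, and neither passed. The receptor genes Rara, Rarg and Rxra had effects between -0.16 and 0.03, none past the test. Cyp2s1, a cytochrome P450, fell over both inhibitors, by 0.28 and 0.37 (adjusted p = 0.0393 and 0.0126). Among 30 measured genes that retinoic acid is known to induce, 3 rose and 2 fell over DEAB, and 0 rose and 1 fell over AGN193109. These counts stand against the same shares of all clusters.

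The cornified envelope gene Sprr1a had the largest tRA effect over DEAB among the named genes. It read 8.87, 8.81 and 8.36 with DEAB and 12.74, 12.07 and 11.87 with DEAB and tRA. It read 8.44, 9.44 and 9.16 with AGN193109 and 10.87, 11.14 and 11.95 with AGN193109 and tRA. The groups with and without tRA did not overlap in either experiment. The effect was 3.55 over DEAB, 11.7-fold (adjusted p = 6.22e-07), and 2.31 over AGN193109, 4.96-fold (adjusted p = 6.76e-05). The smallest DEAB replicate difference was 3.26 and the largest AGN193109 difference was 2.80. The difference of the effects was 1.24 (SE 0.26, 95% interval 0.67 to 1.80, adjusted p = 0.60).

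Ppbp, the precursor of the chemokine CXCL7, whose window carries the DR5 printed above, read 8.89, 8.45 and 8.46 with DEAB and 12.51, 12.04 and 11.76 with DEAB and tRA. With AGN193109 it read 7.44, 7.03 and 7.78, and with AGN193109 and tRA 9.70, 10.25 and 10.20. It rose 11.4-fold over DEAB and 6.20-fold over AGN193109. The difference was 0.87 (SE 0.20, adjusted p = 0.727), with replicate differences of 3.30 or more against 3.22 or less. The difference passed in 1 of 28 alternatives, without the second AGN193109 array, where it was 1.12 (adjusted p = 0.0295). In the other 27 it did not pass.

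Muc20, a membrane mucin, had the second smallest p in the contrast. It read 8.01, 8.33 and 8.48 with DEAB and 8.96, 9.63 and 9.94 with DEAB and tRA. With AGN193109 it read 7.91, 7.50 and 8.71, and after tRA 8.13, 7.74 and 8.79, so that each array gained 0.24 or less. It rose by 1.24 over DEAB (adjusted p = 5.82e-05), and the effect over AGN193109 was 0.18 (95% interval -0.05 to 0.41, adjusted p = 0.666). The difference was 1.06 (SE 0.15, 95% interval 0.74 to 1.39, adjusted p = 0.139).

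Cpm, carboxypeptidase M, gained by close amounts in both experiments. Its replicate differences were 1.64, 1.50 and 1.69 over DEAB and 1.60, 1.80 and 1.42 over AGN193109. It rose by 1.61 and 1.60, and the difference was 0.01 (95% interval -0.23 to 0.24). Csn3, kappa-casein, rose by 1.36 over DEAB (adjusted p = 0.000263), with 0.61 over AGN193109 (adjusted p = 0.0896) and a difference of 0.75 (SE 0.19). With the inhibitors alone Csn3 read 5.50 to 5.86, below every array median, and the paper's RT-qPCR did not amplify it. Lcn2, an iron-siderophore binding protein of injured tubules, rose by 1.04 and 0.96, and Clca3b, of a family of chloride channel regulators, by 1.79 and 1.45. Their differences had intervals of -0.23 to 0.39 and -0.06 to 0.74. Probes of Clca3b may share signal with near-identical family members.

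**Figure D2:**
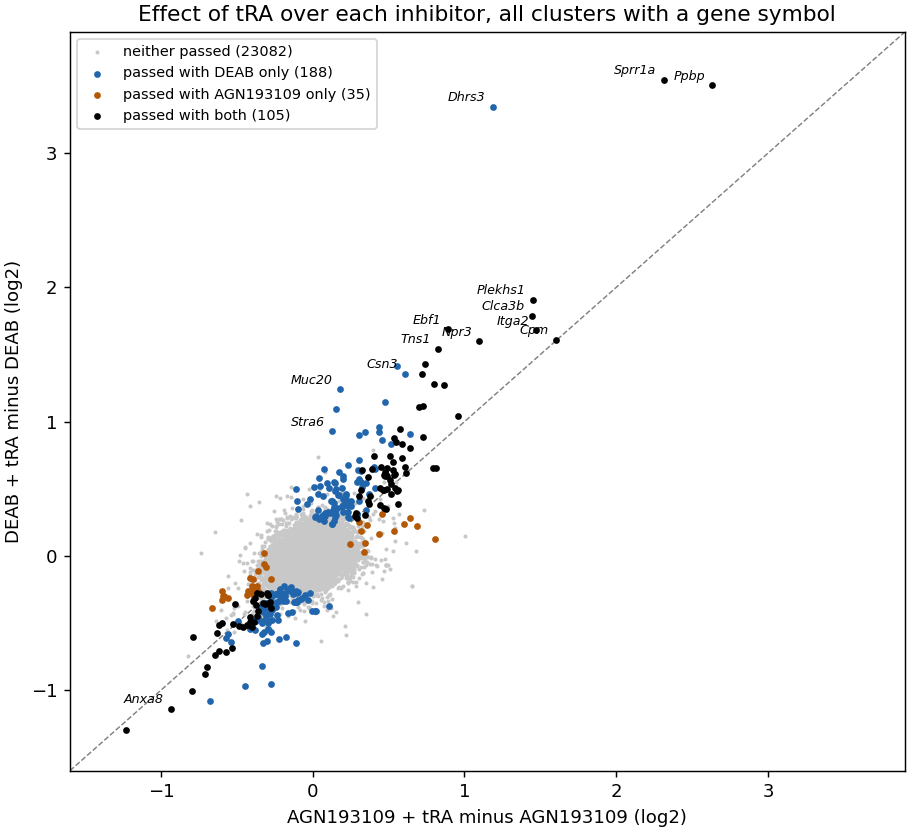
tRA effect over AGN193109 (x axis) against that over DEAB (y axis), both log2, for 23410 clusters with a gene symbol, coloured by which effects passed the test; the dashed line marks equal effects. The 105 clusters that passed with both lie on one side of 0 on both axes, and Dhrs3, Sprr1a and Ppbp lie above the line.

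Of 105 clusters called with both inhibitors, 67 rose, 38 fell and every one had the same sign in both. They were 35.8% of the DEAB calls and 75% of the AGN193109 calls. The DEAB effect was the larger in size in 79 of the 105. Of 188 called over DEAB only, 93 rose and 95 fell, and 180 had the same sign over AGN193109. Of 35 called over AGN193109 only, 34 had the same sign over DEAB. The 2 effects share no arrays. Over all clusters they correlated with Pearson's r = 0.482 and Spearman's rho = 0.288, given as a description, since the clusters share arrays.

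A call over DEAB without one over AGN193109 was no test of a difference. No cluster of the 188 passed the contrast itself, and 86 of them had a contrast interval clear of 0, 58 higher and 28 lower with DEAB. Of all clusters, 3.45% had an unadjusted p under 0.05 in the contrast. The 188 were picked by the same effects that the contrast subtracts, which by itself raises their share. The 86 are therefore given as a description and do not show a difference. For 146 of the 188, the interval of the AGN193109 effect lay within 0.5 of 0 on the log2 scale, as it did for 96.3% of all clusters.

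Tns1, tensin 1, which ties integrins to actin, rose by 1.54 over DEAB and 0.83 over AGN193109, with replicate differences of 1.42, 1.65 and 1.55 against 0.88, 0.66 and 0.94. Its difference was 0.72 (SE 0.13, adjusted p = 0.377), and of its 6 clusters 5 had contrast values between 0.48 and 0.72, while the other was 0.18. Itga2, the collagen-binding integrin alpha 2 subunit, rose by 1.68 and 1.47, with overlapping replicate differences and a contrast of 0.21 (95% interval -0.06 to 0.48). Plekhs1, with a pleckstrin homology domain, rose by 1.91 and 1.45, with a difference of 0.46 (95% interval 0.18 to 0.73, adjusted p = 0.999).

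Receptors and signalling genes were among those with the smallest p in the contrast. Npr3, the natriuretic peptide clearance receptor, gained 1.47, 1.68 and 1.64 over DEAB and 1.03, 1.07 and 1.19 over AGN193109, with a difference of 0.50 (SE 0.08, adjusted p = 0.167). Sorcs2, a sorting receptor, rose by 1.27 and 0.86, with a difference of 0.41 (SE 0.09). Sik1, a salt-inducible kinase chosen after its values were seen, rose by 0.90 over DEAB (adjusted p = 3.67e-05), with 0.31 over AGN193109 (adjusted p = 0.107) and a difference of 0.59 (SE 0.10, adjusted p = 0.259). Tgm2, a transglutaminase likewise chosen, rose by 0.68 over DEAB, with 0.23 over AGN193109 (adjusted p = 0.159). Bmp7, a renal growth factor, rose by 0.60 and 0.49, with a contrast of 0.12 (95% interval -0.13 to 0.36).

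The transcription factor Ebf1, early B cell factor 1, gained 1.66, 1.72 and 1.68 over DEAB, a narrow range, and 0.94, 1.19 and 0.55 over AGN193109. Its difference was 0.79 (SE 0.15, adjusted p = 0.377). Nr3c2, the mineralocorticoid receptor, which mediates the action of aldosterone on the collecting duct, rose by 0.52 over DEAB (adjusted p = 0.00335), with 0.05 over AGN193109. Atf3, a stress response factor, rose by 0.39 over DEAB, with -0.03 over AGN193109. Both were chosen for their small p in the contrast. Foxa1, a forkhead factor of the collecting duct, had effects of 0.18 (adjusted p = 0.228) and 0.02 (adjusted p = 0.956). Sox9 rose by 0.49 and 0.46, with a contrast of 0.03.

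Some transcripts that tRA lowered passed the test over DEAB but not over AGN193109. Angptl4, a secreted inhibitor of lipoprotein lipase, read 8.23, 8.12 and 8.18 with DEAB and 7.80, 7.75 and 7.73 with tRA added. Over AGN193109 it read 7.09, 7.10 and 7.09, and with tRA 7.13, 7.09 and 7.11. It fell by 0.41 over DEAB (adjusted p = 0.000478), the effect over AGN193109 was 0.01 (95% interval -0.08 to 0.11), and the difference was -0.43 (SE 0.06, adjusted p = 0.167). Its vehicle means were 7.01 in the AGN193109 set, below the array medians there, and 7.96 in the DEAB set. Against vehicle, AGN193109 alone gave 0.08 and DEAB alone gave 0.22, neither past the test. Whether the lower reading in the AGN193109 set mattered was not tested. Pdk4, a kinase that restrains pyruvate dehydrogenase, fell by 0.65 over DEAB, with -0.11 over AGN193109 and a difference of -0.54 (SE 0.10). Its vehicle means were 7.28 in the AGN193109 set and 8.41 in the DEAB set. Ptgs2, cyclooxygenase 2, fell by 0.60 over DEAB, with -0.17 over AGN193109 (adjusted p = 0.433). All 3 were chosen after their values were seen. For Anxa8, Ahnak2 and Ndrg1 the falls were 1.14, 1.01 and 0.72 over DEAB and 0.93, 0.79 and 0.57 over AGN193109, with contrasts of -0.20, -0.22 and -0.14.

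**Figure D3:**
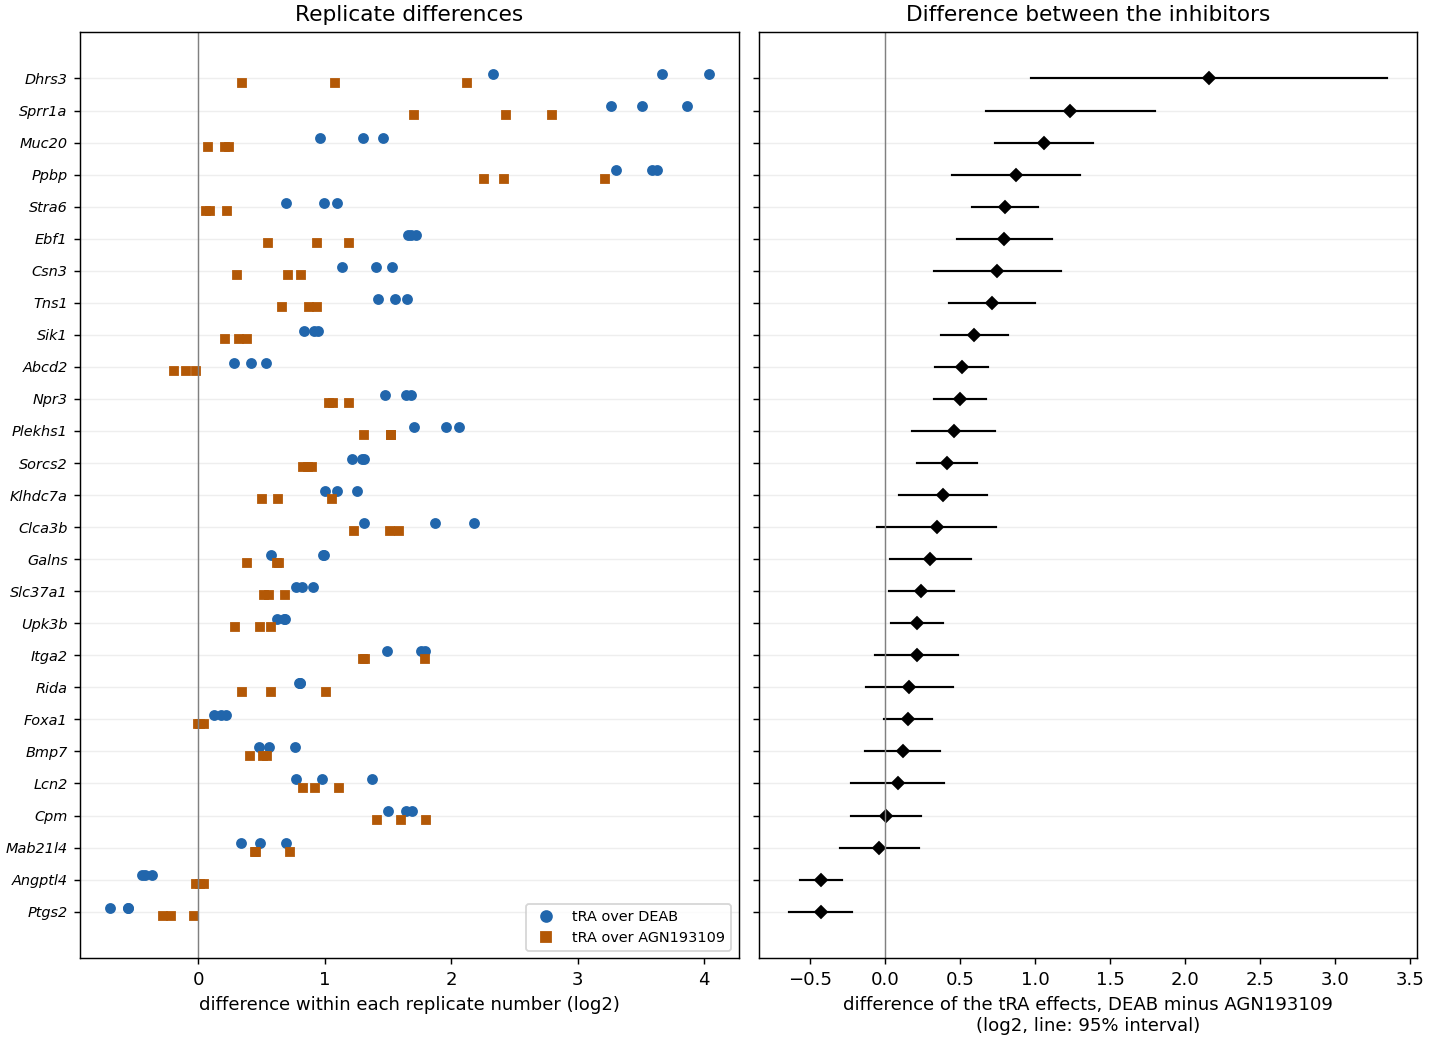
Left, tRA effect within each replicate number (log2) for the 22 genes named by rule and 5 chosen after their values were seen (Stra6, Angptl4, Abcd2, Sik1 and Ptgs2). Right, DEAB effect minus AGN193109 effect (log2) with its 95% interval, from 2.16 for Dhrs3 to -0.43 for Ptgs2; Cpm and Mab21l4 lie at 0.01 and -0.04.

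The study's own candidates were chosen on these arrays, in part because tRA reversed them, so that their direction is not independent evidence. Of its 94 suppressed genes, 83 rose over DEAB, with a median effect of 0.59, and 58 rose over AGN193109, with a median of 0.45. Of all clusters, 0.683% and 0.342% rose. The DEAB effect was above the AGN193109 effect in 80 of 94, against 13594 of all 23410 clusters. The median contrast was 0.16 against 0.02 over all clusters, and 0 of 94 passed the contrast. At an unadjusted p under 0.05, 39 of 94 were higher and 2 lower, against 2.51% and 0.935% of all clusters. Of its 31 induced genes, 30 were measured, 28 fell over DEAB and 16 fell over AGN193109, against 0.568% and 0.256% of all clusters. The DEAB effect was the lower in 26 of 30, against 9816 of all 23410 clusters, with a median contrast of -0.09.

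The counts of the functional lists stand against all clusters, of which 0.683% rose and 0.568% fell over DEAB, and 0.342% rose and 0.256% fell over AGN193109. In the list of chemokines, cytokines and acute-phase proteins, 6 of 34 rose and 2 fell over DEAB, and 3 rose over AGN193109. Of TGF-beta and BMP signalling genes, 7 of 38 rose and 1 fell over DEAB, and 5 rose over AGN193109. Among them, Tgfb2 rose by 0.64 and 0.32, and Ltbp1, which stores latent TGF-beta, rose by 0.96 over DEAB, with 0.44 over AGN193109 (adjusted p = 0.0578). Of kidney development genes, 7 of 31 rose over DEAB and 6 over AGN193109. In the list of squamous differentiation, of which Sprr1a is a member, 1 of 37, Sprr1a, rose and 5 fell over DEAB, and Sprr1a alone rose and 4 fell over AGN193109. The falls included Casp14, by 0.60 and 0.79, and Tgm1, by 0.37 and 0.37. Of glutathione and NRF2 targets, 6 of 30 rose over DEAB and 4 over AGN193109, with Gstm1 at 0.66 and 0.79 and Gstm2 at 0.60 and 0.48. Of 26 principal cell markers, 1 rose over DEAB and 0 over AGN193109, and of 17 intercalated cell markers, 1 fell over DEAB. Of 31 cell cycle genes 2 fell over DEAB, and none of 12 housekeeping genes passed in either. Markers of other renal cell types and of blood cells, 21 in all, held no call either.

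In the other lists, read against the same shares of all clusters, none passed the contrast. Of 36 immediate early and ERK feedback genes, 3 rose and 1 fell over DEAB and 3 rose over AGN193109. Of 31 integrin, laminin and focal adhesion genes, 2 rose and 1 fell with each inhibitor. Among 13 genes of the EGF receptor family and its ligands, 1 rose over DEAB and 2 over AGN193109. Of 13 RAR coregulators none passed. Among 20 aldehyde dehydrogenases, 1 fell with each. Of 26 hypoxia and glycolysis genes, 2 fell over DEAB and 3 over AGN193109. The 26 include the cluster of Nlk, a different gene taken for Gpi1 through a synonym, so that Gpi1 itself was not read. Of 26 interferon response genes, 1 fell over DEAB. None of 19 cholesterol synthesis genes passed, and of 25 genes of the unfolded protein response 1 rose over DEAB. Median contrasts of these lists lay between -0.06 and 0.09.

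The level reached with inhibitor and tRA, taken against the vehicle of the same experiment, was compared between the experiments as well. This endpoint difference was higher with DEAB for 32 clusters (0.137% of 23410) and lower for 1 (0.00427%), Ptgs2, at an adjusted p under 0.05 with the block. Of the 32, 5 were clusters of Tns1. Without the block, or with it as a random effect, 1 cluster was higher and 0 lower, and restricting both experiments to replicate numbers 1 and 3 left 7 and 1. Leaving out any 1 array of DEAB with tRA, of its vehicle or of AGN193109 with tRA, or the first AGN193109 vehicle array, gave 11 to 19 higher. The endpoint joins the effect of the inhibitor with that of tRA. For Sprr1a, DEAB alone gave -2.21 against vehicle and DEAB with tRA gave 1.34, whereas AGN193109 alone gave -2.78 and AGN193109 with tRA gave -0.46. The endpoint difference was 1.80 (95% interval 1.24 to 2.37, adjusted p = 0.0174). For Ppbp, the levels with tRA were 0.89 above and 0.61 below vehicle (-0.61), with an endpoint difference of 1.50 (adjusted p = 0.00914). Dhrs3 reached 1.02 with DEAB and -1.92 with AGN193109, a difference of 2.94 that did not pass (95% interval 1.75 to 4.12, adjusted p = 0.0893). Tested against vehicle within each experiment, the levels of these genes with tRA did not pass for either inhibitor. With DEAB the adjusted p was 0.0537 for Sprr1a, 0.0735 for Ppbp and 0.779 for Dhrs3 (limma).

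The endpoint of Cpm also differed. With a contrast of 0.01, it had an endpoint difference of 1.16 (95% interval 0.93 to 1.40, adjusted p = 0.00125), since DEAB alone gave -1.20 and AGN193109 alone gave -2.36. Plekhs1 ended at 0.68 with DEAB (adjusted p = 0.0537 against vehicle, limma) and -0.67 with AGN193109 (adjusted p = 0.00771). Npr3 ended at 0.60 (adjusted p = 0.00373) and at -0.05, the latter with an interval of -0.17 to 0.07. Ptgs2, which each inhibitor alone left above vehicle by 0.31 and 0.74, ended at -0.29 with DEAB and 0.56 with AGN193109. Smad3, a mediator of TGF-beta signalling chosen after its values were seen, ended at 0.15 and -0.33. Against vehicle, the DEAB values of Ptgs2 and Smad3 did not pass, and their AGN193109 values did.

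Of the 94 suppressed genes, 87 were above vehicle with DEAB and tRA (median 0.14) and 9 with AGN193109 and tRA (median -0.23), and 79 were above in the first and below in the second. Of all 23410 clusters, 11934 and 11930 were above vehicle, and 5418 were above in the first and below in the second. Of the 30 induced genes, 0 were above vehicle with DEAB and tRA (median -0.21), and 16 were with AGN193109 and tRA (median 0.02). The inhibitors alone gave medians of -0.40 (DEAB) and -0.66 (AGN193109) for the suppressed genes and 0.21 and 0.40 for the induced genes.

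**Figure D4:**
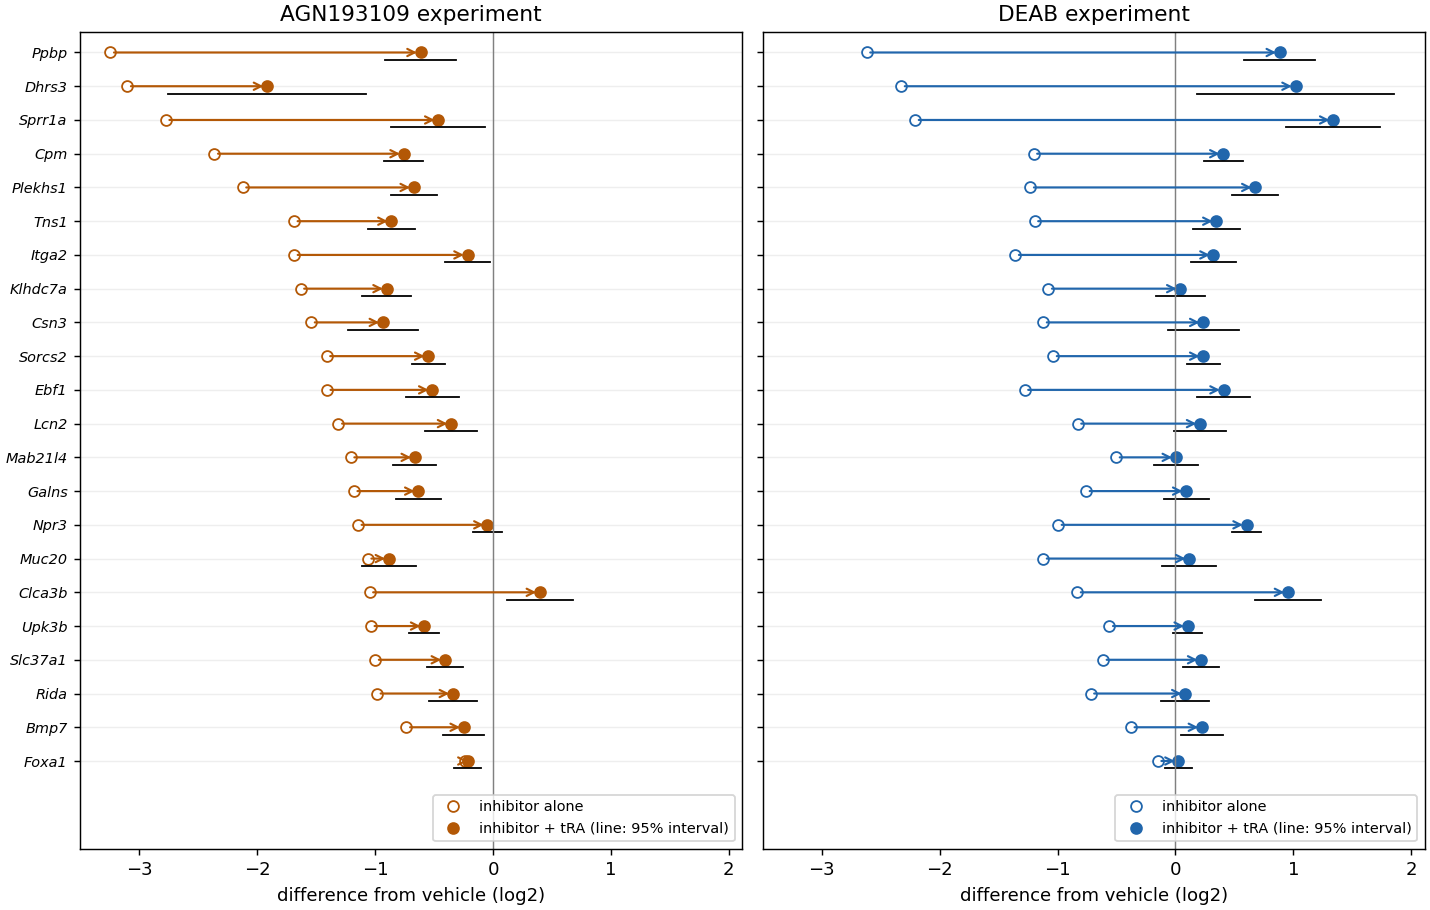
Difference from vehicle (log2) for the 22 genes named by rule, in the AGN193109 (left) and DEAB (right) experiments; open circles are the inhibitor alone, filled circles the inhibitor with tRA, arrows join them and lines are 95% intervals of the filled circles. With tRA all 22 genes lie above vehicle over DEAB, and all but Clca3b lie below it over AGN193109. Over DEAB only Npr3 passed the test against vehicle (adjusted p = 0.00373, limma).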

How the data were processed

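The data are 18 Mouse Gene 1.0 ST arrays of mIMCD-3 RNA. The authors deposited log2 values made with RMA in the Affymetrix Expression Console, version not given in the sources read. RMA sets arrays of a set to one scale, so that a shift shared by all transcripts would not show. Each array took its group from its title, and vehicle arrays their experiment from the form of their short names. The antagonist is spelled as in the titles, although other fields also hold AGN193110 and AGN193099.

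Of 35556 clusters, 23410 with a gene symbol were fitted with limma 3.58.1 in R 4.3.3, over 18 arrays, with replicate number nested in experiment as a block (8 residual degrees of freedom) and Benjamini-Hochberg adjustment over all 23410. The block was part of the planned fit, and residuals of same-numbered arrays correlated at 0.179 or more in all 9 pairs of each experiment, against -0.575 to 0.205 (AGN193109) and -0.511 to 0.312 (DEAB) in the 18 different-numbered pairs of each. Intervals are 95%. Symbols are from the platform annotation, and 21698 of 21789 clusters with 1 symbol were found in RefSeq by gene ID. The rule named Dhrs3, Sprr1a, the study's 20 most lowered genes, Bmp7 and Foxa1, and any gene called in the contrast. The other genes were chosen after their values were seen, as the 20 with the smallest p in the contrast, those called for the endpoint, or members of the lists. A gene with several clusters was read from the one in the study's table or else the brightest. The markers, lists and tests were chosen with earlier results of these data known. Tests were tried on simulated data. Figures used matplotlib 3.10.9 in Python 3.11.15. The number of arrays limits the precision.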

Additional observations from a re-analysis of the deposited data

Results flagged for a closer look

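The endpoint difference, which compares the distance from vehicle after inhibitor and tRA between the DEAB and AGN193109 experiments, passed limma's test of the difference for 32 clusters higher, 5 of them of Tns1, and 1 lower with DEAB. With the replicate block as a random effect, or without it, 1 was higher and 0 lower. The difference was 1.80 (log2) for Sprr1a. Among secreted and surface proteins, it was 1.50 for Ppbp, 1.16 for Cpm, 1.17 for Csn3, 1.00 for Muc20, 0.69 for Upk3b and 0.64 for Upk3bl, both of the uroplakin family. For receptors and channels, it was 0.65 for Npr3, 0.79 for Sorcs2, 0.80 for Stra6, 1.52 for Gabrp, a GABA receptor subunit, and 0.69 for P2ry1, a purinergic receptor. It was 0.73 for Sik1, 0.54 for Mknk2, 0.54 for Wnt9a, 0.48 for Smad3 and 0.82 for Dtx4 among signalling genes, and 0.92 for Ebf1. The cytoskeletal genes Tns1 and Synpo had 1.21 and 0.55. The remaining ones were Plekhs1 with 1.35, Klhdc7a with 0.94, Slc37a1 with 0.63, Tgm2 with 0.84, Gdpd5 with 0.61, AI661453 with 0.43 and Gm5771 with 0.91. The value for Ptgs2 was -0.86. Upk3b and Upk3bl, and Gm5771 and its relatives, are families in which probes may share signal. Csn3 read below every array median with each inhibitor alone.

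In 4 genes chosen after their values were seen, every replicate moved up with tRA over DEAB and down over AGN193109. The differences were 0.51 for Abcd2, a peroxisomal fatty acid transporter, 0.40 for Slc5a8, a monocarboxylate transporter, 0.39 for Kcnab2, a potassium channel subunit, and 0.47 for Gm5771. None passed the contrast, whose adjusted p was 0.167, 0.60, 0.727 and 0.999. Opposite signs throughout occurred in 331 of 23410 clusters, 1.41%. Abcd2 read 5.79 to 6.35 and Slc5a8 read 5.93 to 6.71 over the 18 arrays, below every array median and among the dim clusters.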

How the results depend on the processing

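The contrast of the tRA effects called 0 clusters in every alternative but 2. Leaving out the second AGN193109 array called 1 (Ppbp), and leaving out the second DEAB with tRA array called 1 (Stra6), so that leave-one-out counts ran from 0 to 1 higher and 0 to 0 lower. No endpoint difference of a named gene changed sign, but all 28 lost their call in some of 27 alternatives (26 for Csn3), from 1 for Plekhs1 and 2 for Cpm, Sorcs2 and Tns1 to 12 for Sprr1a, 22 for Mknk2 and 24 for AI661453. Among contrasts, none of which was called, those of Cpm, Lcn2, Mab21l4, Bmp7 and Upk3bl changed sign in some alternatives. Genes called over DEAB and not over AGN193109 numbered 188 once no call in the contrast was required, against 0 with it and 0 to 1 with an array left out. Other counts are given as higher and lower. Over DEAB they were 160 and 133, over AGN193109 80 and 60, and for the endpoint 32 and 1. Without the replicate block these became 44 and 16, 7 and 2, and 1 and 0. With the block as a random effect they became 96 and 51, 25 and 8, and 1 and 0. With the 12 inhibitor arrays alone they were 96 and 47, and 34 and 12, and the endpoint could not be fitted. Array weights gave 287 and 315, and 46 and 14. Counting clusters with or without a symbol, there were 72 lower over DEAB, 53 and 19 over AGN193109, and 14 higher for the endpoint. With dim clusters left out, 108 were lower over AGN193109 and 4 for the endpoint. The trend and robust options gave 101 and 3 lower, and renewed quantile normalization gave 2 lower for the endpoint. Restricting both experiments to numbers 1 and 3, added after the values were seen, gave 63 and 23, 18 and 10, and 7 higher for the endpoint. Leaving out 1 array in turn gave 85 to 179 and 30 to 163 over DEAB, 46 to 86 and 11 to 101 over AGN193109, and 11 to 32 and 1 to 8 for the endpoint. Over DEAB, leaving out any 1 array of DEAB or DEAB with tRA gave 85 to 102 and 30 to 54. Over AGN193109, leaving out the first AGN193109 array gave 46 and 11, and the lower count was 101 without replicate 2 and 16 without replicate 3 of that group. It was 18 without replicate 1 and 20 without replicate 3 of AGN193109 with tRA, and 30 to 39 without any array of DEAB, DEAB with tRA or the first or second of its vehicle. The endpoint's higher count was 11 to 19 without any array of DEAB with tRA, its vehicle or AGN193109 with tRA, or without the first AGN193109 vehicle array. Its lower count was 8 without the second AGN193109 vehicle array. The cause of these changes was not tested, apart from the smaller number of arrays.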
